A study of Mus musculus with 12 samples.

Results

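The step from 2 h to 4 h of retinoic acid (RA) was followed in KH2 cells, a mouse embryonic stem (ES) cell line, on 6 of the 12 expression arrays of a time course. The members of the comparison are the 3 arrays of cells exposed to RA for 2 h and the 3 arrays of cells exposed for 4 h, compared over all 18193 genes that a probe set names alone. Both groups had received the same differentiation medium (DMEM with 10% serum, NAA and 0.3 µM RA), so neither RA dose nor medium differs between them. What separates them is 2 further hours in that medium with RA. The series has no arrays of cells in the medium without RA at 2 h or 4 h. Effects of time in RA and of time in the medium cannot be told apart. The cells grew on feeders, were replated on gelatin for 30 min after the exposure and gave 200 ng of RNA per labelling. The protocols disagree on whether attached or unattached cells were collected. The labels give no clone number and no transgene for KH2, and nothing in them says that replicates A, B and C were separate cultures, so p-values may reflect technical spread alone. The other 6 arrays, 3 of untreated cells and 3 of cells exposed for 6 h, enter where stated; whether untreated cells also changed medium is not given in the labels.

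Retinoic acid is made from vitamin A and binds the nuclear receptors RARα, RARβ and RARγ, which sit on DNA as partners of the RXR receptors and switch on nearby genes when the ligand is bound. Among the earliest known targets are the enzyme that breaks RA down, the receptor RARβ and the 3′ members of the Hox clusters, which set position along the body axis. In ES cells the same signal ends self-renewal and leads, over days, to neural and other differentiated fates.

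Between 2 h and 4 h, 2316 genes rose (12.7% of those tested) and 2160 fell (11.9%), 24.6% in all, at an adjusted p under 0.05 in limma's moderated test. Values are log2 array signal, on which a difference of 1 is a 2-fold change, and differences are given as 4 h minus 2 h ± the standard error (SE) of the fit. Most changes were small: the median was 0.39 among genes that rose and -0.39 among genes that fell, 68 genes rose and 75 fell by at least 1, and the median over all genes was -0.02. The 2 h and 4 h arrays did not overlap for 46% of all genes and for 4458 of the 4476 genes called. The number of genes lower at 4 h was 1419 without 2 h replicate B and 1482 to 1665 without any other of the 6 arrays, and the number higher was 1617 to 1753.

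The 6 arrays were close in correlation and RNA integrity, and less so in fitted array weights (1.129 to 1.884 at 2 h and 0.834 to 1.811 at 4 h). Their correlation over all probe sets was 0.9973 to 0.9980 within 2 h, 0.9973 to 0.9977 within 4 h and 0.9926 to 0.9939 between the times. The spread of genes around their group mean was 0.0816 to 0.0889 on the 2 h arrays and 0.0885 to 0.1046 on the 4 h arrays. It was 0.130 to 0.197 on the untreated arrays, largest on untreated C. RNA integrity, read as the 3′ minus 5′ signal of Gapdh, was -0.03 to -0.02 at 2 h and -0.04 to -0.02 at 4 h. For Actb the same measure was 0.49 to 0.59 at 2 h and 0.49 to 0.56 at 4 h. The 10 ES cell markers were all above the median signal of all probe sets on every array, with a mean level of 12.76 to 12.77 at 2 h and 12.39 to 12.53 at 4 h. Markers of feeder fibroblasts, which the cultures also held, had a mean level of 8.68 to 8.85 at 2 h and 8.77 to 8.90 at 4 h over 30 genes. In RNA from whole cultures, fewer cells of a type and less RNA per cell cannot be told apart.

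The untreated and 6 h arrays, which share no array with this comparison, were compared for the same genes. Each gene's variance came from the same fit in both comparisons, so their calls were not independent. A gene with a low variance was more easily called in both. Of the 2316 genes that rose from 2 h to 4 h, 1770 (76.4%) were also higher at 6 h than in untreated cells, 7 were lower and 539 were not called, with a median difference of 0.38. Of the 2160 that fell, 1593 (73.8%) were lower at 6 h than in untreated cells, 17 were higher and 550 were not called, with a median of -0.41. Over all genes tested, 29.7% were called in that comparison, 15% higher and 14.7% lower at 6 h. That second comparison may also hold a change of medium.

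**Figure D1:**
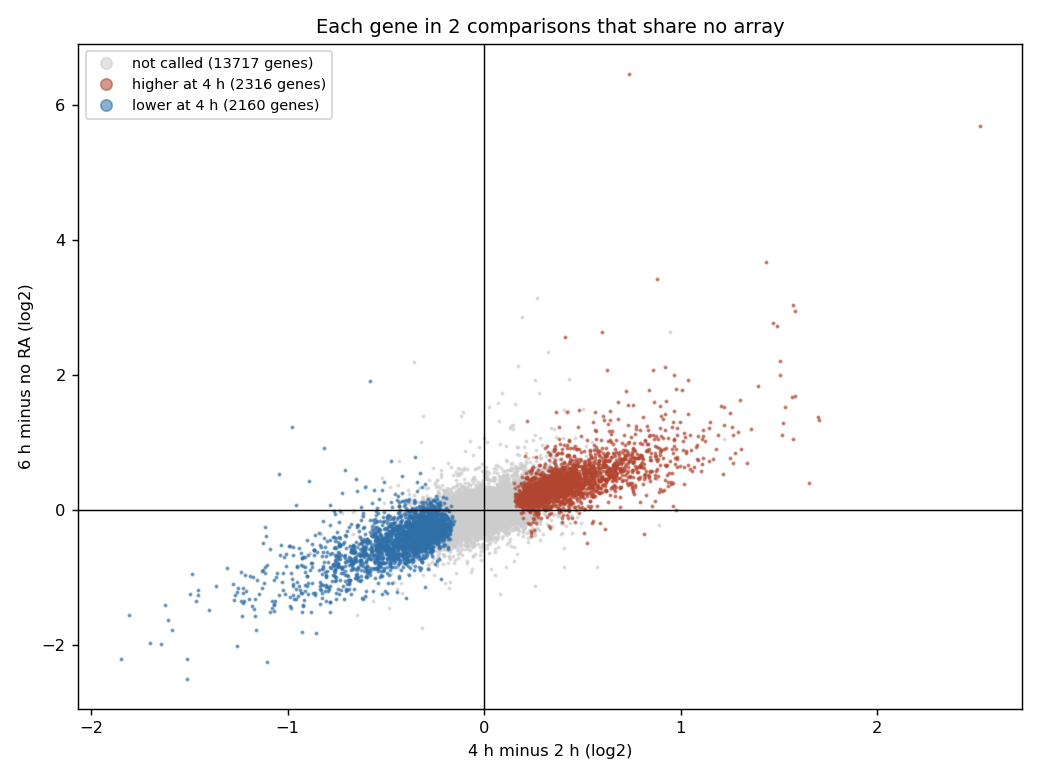
Difference of each gene between 4 h and 2 h (horizontal axis, log2) against its difference between 6 h and no RA (vertical axis, log2), in 18193 genes. Red points are the 2316 genes higher at 4 h, blue points the 2160 lower, and grey points genes not called. Most red points lie above 0 and most blue points below 0 on the vertical axis.

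The largest rise was that of Hoxb1, a homeobox gene of the hindbrain and a direct RA target. Its array values were 6.64, 6.66 and 6.57 at 2 h and 8.90, 9.45 and 9.08 at 4 h, a difference of 2.52 ± 0.17, adjusted p = 5.91e-06. The 4 h arrays stood more than 2 log2 units above every 2 h array. Hoxb1 was already higher at 2 h than without RA (3.69 in untreated cells and 6.62 at 2 h, means of 3 arrays), so this step carried on an increase under way.

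Clk2, Gbx2 and Bmp4, also among the largest rises, were not called between untreated cells and 2 h. Clk2, a kinase of splicing factors, gave 8.66, 8.61 and 8.72 at 2 h and 10.36, 10.35 and 10.38 at 4 h (1.70 ± 0.25, adjusted p = 6.81e-04). Gbx2, a homeobox gene of the anterior hindbrain that also acts in ES cell self-renewal, gave 8.80, 8.41 and 8.22 at 2 h and 9.92, 10.19 and 10.07 at 4 h (1.58 ± 0.23, adjusted p = 6.36e-04). Bmp4, a ligand of the bone morphogenetic protein family, gave 9.12, 8.94 and 8.92 at 2 h and 10.56, 10.60 and 10.38 at 4 h (1.52 ± 0.13, adjusted p = 2.80e-05). The groups of these 3 genes did not overlap, as the choice of the largest rises required. In untreated cells their means were 9.10, 8.32 and 9.12. The untreated arrays of Clk2 gave 8.73, 8.63 and 9.95, so untreated C, without RA, lay nearer the 4 h than the 2 h values. Untreated C also lay nearer the 4 h than the 2 h mean in Bbs12 (5.73), Ankrd37 (9.34) and Amotl2 (9.83). It did not in Bmp4 (8.90) or Cebpd (6.71).

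Cebpd, a bZIP transcription factor, gave 6.44, 6.09 and 6.33 at 2 h and 7.89, 7.87 and 7.83 at 4 h (1.57 ± 0.10, adjusted p = 4.39e-06), with 1 of its 2 probe sets called. Zfp423, a zinc finger protein that binds SMAD proteins and takes part in RA-induced differentiation, gave 9.36, 9.27 and 9.14 at 2 h and 10.50, 10.85 and 10.93 at 4 h (1.50 ± 0.12, adjusted p = 1.81e-05). Prdm14, a transcriptional repressor of ES cells and germ cells, gave 9.03, 8.93 and 9.01 at 2 h and 10.95, 10.83 and 10.30 at 4 h (1.70 ± 0.34, adjusted p = 0.00364). All 3 rose with no overlap of arrays, as their choice required, and the 4 h values of Prdm14 were more spread than those of Cebpd. Shisa3, an inhibitor of Wnt and FGF receptor maturation, rose from 5.91 at 2 h to 7.47 at 4 h (1.56 ± 0.11, adjusted p = 9.26e-06). Hs3st3b1, a heparan sulfate sulfotransferase, rose from 5.97 at 2 h to 7.62 at 4 h (1.65 ± 0.11, adjusted p = 4.41e-06).

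The 15 largest rises also held Hoxa4, Hoxa5, Hoxb2, Hoxb5, Bbs12 and Lrrc14, with differences between 1.49 and 1.58. Bbs12, a chaperonin-like protein of the ciliary BBSome pathway, stayed under the median signal at both times (1.52). The 2 probe sets of Lrrc14 were called in opposite directions, and the brighter of them gave 1.53. Hs3st3b1, Shisa3 and Hoxb5 were under the median signal at 2 h only. Because no test against background was run for signals under the median, these genes get no fold.

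The largest fall was that of Fut9, the fucosyltransferase that makes the SSEA-1 (Lewis X) surface glycan of mouse ES cells. Its array values were 8.75, 8.87 and 8.83 at 2 h and 7.16, 6.99 and 6.77 at 4 h (-1.85 ± 0.10, adjusted p = 4.39e-06), and all 3 of its probe sets fell. Ndrg1, a gene responsive to hypoxia and metal chelation, gave 8.94, 9.02 and 8.97 at 2 h and 7.25, 7.22 and 7.02 at 4 h (-1.81 ± 0.11, adjusted p = 4.39e-06), and all 5 of its probe sets fell. Every 4 h array lay more than 1 log2 unit below every 2 h array in both genes.

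Several falling genes encode regulators of signalling and of the cell surface. Pdgfc, a platelet-derived growth factor ligand, gave 9.23, 9.61 and 9.55 at 2 h and 8.12, 7.84 and 7.90 at 4 h (-1.51 ± 0.19, adjusted p = 2.07e-04). Hs6st1, a heparan sulfate 6-O-sulfotransferase, gave 11.31, 11.46 and 11.66 at 2 h and 10.11, 10.10 and 9.77 at 4 h (-1.49 ± 0.20, adjusted p = 3.24e-04). Amotl2, an angiomotin family protein that holds back YAP, gave 10.73, 10.89 and 10.97 at 2 h and 9.46, 9.47 and 9.29 at 4 h (-1.46 ± 0.25, adjusted p = 0.00165). All 3 were above the median signal at both times. Every 2 h array was above every 4 h array, as the choice of the largest falls required.

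Mllt3, a subunit of the super elongation complex, fell from 6.30 at 2 h to 4.71 at 4 h (-1.59 ± 0.08, adjusted p = 1.87e-06), ending under the median signal, with all 3 of its probe sets called. Cyp2s1, a cytochrome P450 that can oxidise RA, gave 8.16, 8.32 and 8.27 at 2 h and 6.81, 6.71 and 6.83 at 4 h (-1.47 ± 0.094, adjusted p = 4.39e-06). Frmd4b, a scaffold protein of cell junctions, gave 8.46, 8.35 and 8.62 at 2 h and 7.11, 7.10 and 7.02 at 4 h (-1.40 ± 0.093, adjusted p = 5.13e-06). The groups of these 3 genes did not overlap, as the choice of the largest falls required.

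The other members of the 15 largest falls were Mipol1 (-1.70), Ly6g6e (-1.65), Osbpl10 (-1.62), Lcorl (-1.61), Lrrc31 (-1.52), Zc3h6 (-1.50) and Fgd5 (-1.46). Osbpl10 encodes an oxysterol-binding protein and Fgd5 an exchange factor for the GTPase CDC42. Zc3h6 was under the median signal at both times, and its call was lost without either 2 h C or 4 h B (adjusted p 0.0242 to 0.0595 over the 6 fits that left out 1 array). Osbpl10, Lcorl and Lrrc31 ended under the median signal at 4 h.

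**Figure D2:**
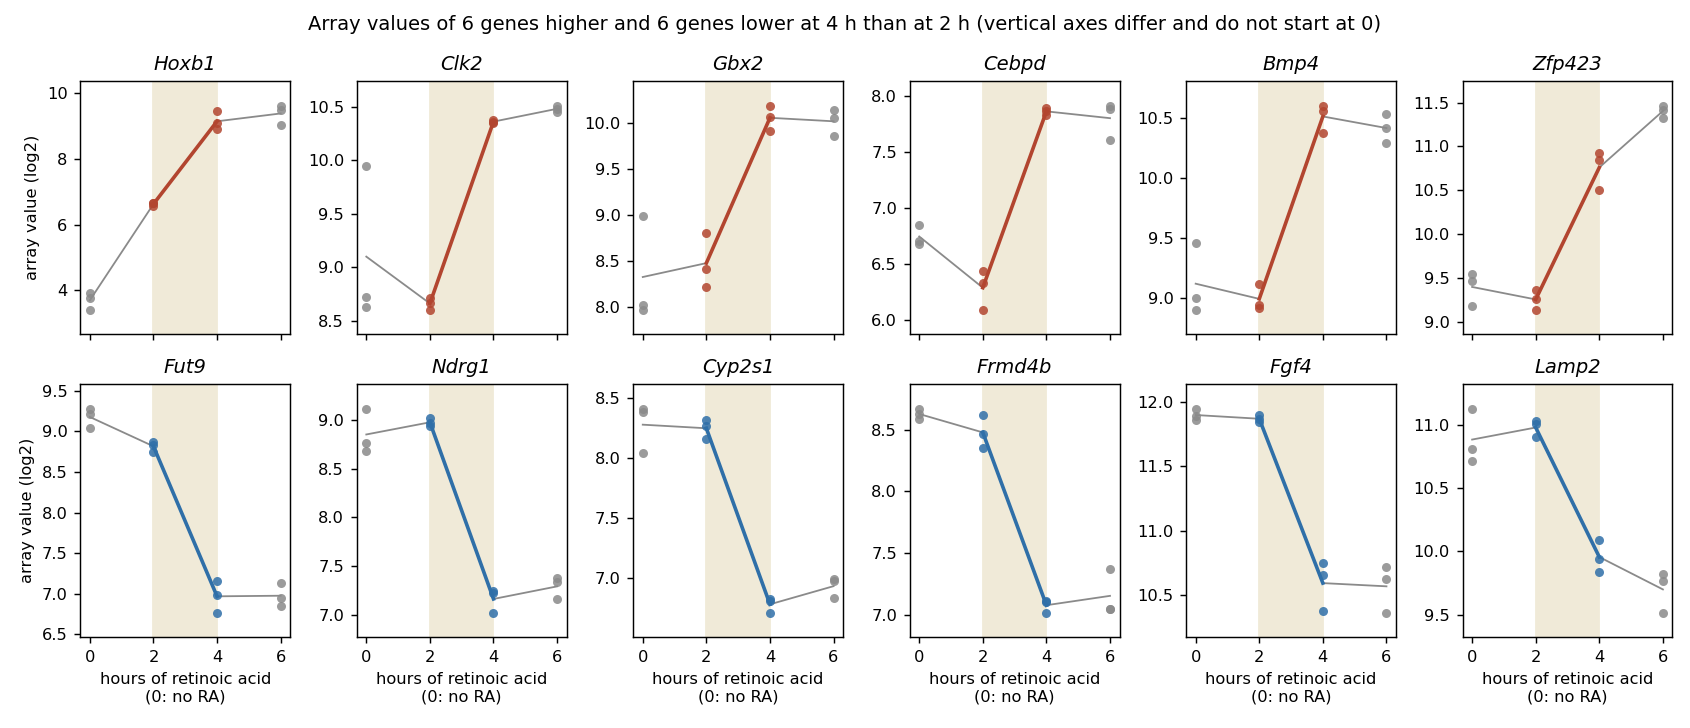
Array values (log2) of 6 genes higher and 6 genes lower at 4 h than at 2 h against hours of RA, where 0 h is no RA. Points are the 3 arrays of each time, lines join the group means, and the shaded band marks the step from 2 h to 4 h, with its arrays coloured. The coloured groups do not overlap in any panel, which the choice of genes required for all but Fgf4 and Lamp2. The untreated arrays are more spread for Clk2 and Gbx2.

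Of 18 measured genes of RA metabolism and binding, 3 rose (16.7%, against 12.7% over all genes) and 2 fell (11.1%, against 11.9%), shares near those over all genes, with a median of -0.11. The counts of every list below are to be read against the same 2 shares over all genes. Over all 55 gene lists, 30 counts of genes higher or lower were 1 or 2, and 22 of these changed, 9 of them to 0, without at least 1 of the 6 arrays. Cyp26a1, the enzyme that inactivates RA, gave 12.07, 11.87 and 11.83 at 2 h and 12.64, 12.66 and 12.69 at 4 h (0.74 ± 0.084, adjusted p = 1.33e-04), all on top of a far larger increase from 5.81 in untreated cells. Stra6, the cell surface receptor for vitamin A bound to its carrier, was 6.62 at 2 h and 7.06 at 4 h (0.44 ± 0.11, adjusted p = 0.0148), a call lost without 2 h B (adjusted p 0.00561 to 0.0641 over the 6 fits that left out 1 array). Crabp2, which hands RA to its receptor, rose by less (0.28 ± 0.078, adjusted p = 0.0207), a call lost without either 2 h A or 4 h C (adjusted p 0.0239 to 0.089 over the 6 fits that left out 1 array). Rdh11, a retinal reductase, fell from 8.23 at 2 h to 7.62 at 4 h (-0.61 ± 0.097, adjusted p = 0.00105) with both of its probe sets. Dhrs3, another retinal reductase, was 8.37 at 2 h to 8.54 at 4 h and was not called (0.17 ± 0.28, adjusted p = 0.72).

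Among 13 receptors and coregulators 2 rose and 4 fell (1 to 2 with 1 of the 6 arrays left out), with a median of 0.02. Rarg, the RARγ gene, rose from 10.37 at 2 h to 11.05 at 4 h (0.68 ± 0.10, adjusted p = 6.67e-04) with both of its probe sets, and Rxrb, an RXR partner, rose from 9.88 at 2 h to 10.18 at 4 h (0.29 ± 0.052, adjusted p = 0.00181). Rarb gave 6.996, 6.848 and 7.177 at 2 h and 7.186, 7.333 and 7.341 at 4 h. Its arrays did not overlap, but the difference did not pass the test (0.28 ± 0.16, adjusted p = 0.257). Med1, a mediator subunit that receptors bind, fell (-0.50 ± 0.12, adjusted p = 0.00907), but not as the mean of its 7 probe sets, 1 of which rose and 2 fell.

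The receptors bind direct repeats of a 6-base motif, spaced by 1, 2 or 5 bases (DR1, DR2, DR5). The motif searched was AGGTCA, and its accepted variants were AGTTCA (changed in the middle), GGGTCA (changed at the start) and GGTTCA (changed at both). Both strands of the RefSeq promoter windows (GRCm38.p6, 250 bases before to 50 after each gene's start) were searched, with positions counted from 0 at the first transcribed base. The window of Cyp26a1 (chr19:37697558-37697857, plus strand) is shown because its gene sits at the centre of RA breakdown and rose at both steps. It holds a DR5 on the minus strand from -32 to -16, with its 2 motifs in capitals.
Cyp26a1: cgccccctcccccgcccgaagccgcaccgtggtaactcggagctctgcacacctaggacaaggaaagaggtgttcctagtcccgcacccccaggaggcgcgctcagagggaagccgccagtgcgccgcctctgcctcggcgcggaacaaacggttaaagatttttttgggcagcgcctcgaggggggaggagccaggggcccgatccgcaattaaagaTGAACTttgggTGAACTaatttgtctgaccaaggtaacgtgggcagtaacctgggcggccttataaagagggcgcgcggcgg
The elements alone of the other windows that the rule for promoters took, and that of Rarb, are shown for comparison, 5′ to 3′ in the direction of the gene with motifs in capitals. The Trmt2a element lies at -177 to -165, the Slc7a7 element at -240 to -227 and the Rarb element at -53 to -37.
Cyp26a1 DR5: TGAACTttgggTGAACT
Rarb DR5: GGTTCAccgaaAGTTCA
Slc7a7 DR2: TGAACTtcTGACCC
Trmt2a DR1: TGACCCcTGACCC

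Trmt2a (chr16:18248633-18248932, plus strand), a tRNA methyltransferase, rose by 0.78 on the log2 scale and Slc7a7 (chr14:54417895-54418194, minus strand), an amino acid transporter subunit, by 0.71; Rarb lies at chr14:16575427-16575726, minus strand. A DR1, DR2 or DR5 was held by 0.422% of 1897 rising genes with a window, against 0.347% of 1731 falling genes and 0.425% of all 14368 genes tested with a window. Among the 220 genes higher at 2 h than in untreated cells with a window, 4 (1.82%) did. None of the 9 genes with a window among the 15 largest rises did, too few to be set against the share over all genes. Over all 32851 windows of this length, 0.222% held a DR1, 0.268% a DR2 and 0.0974% a DR5. A match is only a run of letters in this window, and elements farther away were not searched.

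Members of the Hoxb and Hoxa clusters rose, and no gene of the other clusters was called. In the Hoxb cluster 5 of 9 measured genes rose and the rest were not called, with a median of 0.56 against -0.02 over all genes. Besides Hoxb1, Hoxb2 gave 6.49, 6.37 and 6.64 at 2 h and 7.77, 8.03 and 8.21 at 4 h (1.51 ± 0.25, adjusted p = 0.00126) and Hoxb5 gave 5.75, 5.57 and 5.25 at 2 h and 6.65, 7.05 and 7.34 at 4 h (1.49 ± 0.23, adjusted p = 9.44e-04). Hoxb13, the gene at the 5′ end of the cluster, rose from 6.05 at 2 h to 6.97 at 4 h (0.92 ± 0.11, adjusted p = 1.77e-04), starting under the median signal. The groups of these genes did not overlap, which the choice of the largest rises required for all but Hoxb13.

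In the Hoxa cluster 3 of 9 measured genes rose (2 with 1 of the 6 arrays left out), with a median of 0.12. Hoxa5 gave 6.38, 6.50 and 6.54 at 2 h and 7.66, 7.94 and 8.54 at 4 h (1.57 ± 0.33, adjusted p = 0.0049). Hoxa4 gave 4.34, 4.32 and 4.33 at 2 h and 5.52, 5.72 and 6.48 at 4 h (1.58 ± 0.22, adjusted p = 4.20e-04), all but 1 of its arrays under the median signal. Hoxa2 also rose (0.42 ± 0.13), a call lost without any 1 of the 6 arrays (adjusted p 0.0602 to 0.122 over the 6 fits that left out 1 array). In the Hoxc and Hoxd clusters none of 15 measured genes passed limma's test, 1 had an unadjusted p under 0.05, and the median was -0.04. Of those 15, 11 were under the median signal at both times.

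Hox proteins bind DNA with TALE homeodomain partners of the Meis and Pbx families. Among 13 cofactors and Cdx genes 5 rose and 2 fell. Meis2 gave 6.37, 6.63 and 6.33 at 2 h and 7.82, 8.11 and 7.80 at 4 h (1.47 ± 0.15, adjusted p = 6.98e-05), and all 4 of its probe sets rose. Cdx1, a direct RA target that acts on Hox genes, rose from 8.63 at 2 h to 9.50 at 4 h (0.88 ± 0.13, adjusted p = 7.29e-04), less than its increase from 6.01 in untreated cells to 2 h (-1.74 ± 0.23, adjusted p = 0.00136 for the difference between the steps). Pbx2 rose from 9.95 at 2 h to 10.59 at 4 h (0.64 ± 0.12, adjusted p = 0.00231), though not as the mean of its 3 probe sets. Cdx2 was 6.56 at 2 h to 6.68 at 4 h and was not called (0.13 ± 0.10, adjusted p = 0.43).

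The Hoxb1 window (chr11:96365508-96365807, plus strand) is shown because Hoxb1 had the largest rise and is known to bind its own control region with Pbx partners. It held no DR1, DR2 or DR5. The bipartite motif TGATNNAT, searched on both strands, occurred once, at -162 to -155, and is in capitals.
Hoxb1: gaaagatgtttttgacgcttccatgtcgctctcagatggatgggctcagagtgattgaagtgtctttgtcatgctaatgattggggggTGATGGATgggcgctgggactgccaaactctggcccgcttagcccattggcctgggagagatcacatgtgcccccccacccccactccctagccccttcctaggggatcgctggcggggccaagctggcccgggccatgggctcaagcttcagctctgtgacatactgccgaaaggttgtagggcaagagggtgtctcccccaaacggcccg
The same motif was in 8.85% of all 32851 windows and in 6.51% of the 14368 genes tested with a window. It was in 4.48% of the 1897 rising and 6.87% of the 1731 falling genes with a window, and in 10.9% of the 220 genes higher at 2 h than in untreated cells.

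Neural plate and hindbrain factors were called in both directions. Of 23 measured, 6 rose and 4 fell (fallers 2 to 3 with 1 of the 6 arrays left out, being 2 without 2 h B, 2 h C or 4 h C), with a median of 0.08. Pax6, a factor of eye and neural tube, gave 7.20, 6.78 and 7.24 at 2 h and 8.41, 8.38 and 8.62 at 4 h (1.39 ± 0.21, adjusted p = 6.67e-04), with 2 of its 5 probe sets called. Nr6a1, the germ cell nuclear factor that represses Pou5f1 in differentiating cells, rose from 10.79 at 2 h to 11.72 at 4 h (0.92 ± 0.064, adjusted p = 6.85e-06). Hesx1, a repressor of the anterior forebrain, gave 8.59, 8.49 and 8.60 at 2 h and 7.67, 7.58 and 7.37 at 4 h (-1.02 ± 0.10, adjusted p = 7.28e-05). Egr2, a factor of hindbrain segments that also answers growth signals, fell from 6.96 at 2 h to 6.15 at 4 h (-0.80 ± 0.17, adjusted p = 0.00609). Otx2, a forebrain and midbrain factor, was not called (0.08 ± 0.18, adjusted p = 0.796), its sign turning without 4 h A.

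Genes of neurogenesis split evenly, with 4 of 20 higher (risers 2 to 3 with 1 of the 6 arrays left out, being 2 without 2 h A, 2 h C or 4 h C) and 4 lower. Neurod1, a proneural factor, rose from 7.56 at 2 h to 8.54 at 4 h (0.98 ± 0.15, adjusted p = 7.81e-04). Map2, a microtubule protein of neurons, fell from 6.72 at 2 h to 5.85 at 4 h (-0.87 ± 0.11, adjusted p = 2.17e-04), with 1 of its 4 probe sets called. Tal2, a bHLH factor, gave 8.28, 8.40 and 8.47 at 2 h and 7.58, 7.65 and 6.98 at 4 h (-0.98 ± 0.20, adjusted p = 0.00467). This fall followed a rise from 5.32 in untreated cells to 8.38 at 2 h, and the difference between the steps was -4.04 ± 0.35, adjusted p = 1.43e-04.

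More genes of naive pluripotency fell than rose. Of 27 naive pluripotency genes 10 fell and 5 rose, with a median of -0.22. Fgf4, the growth factor that primes ES cells to differentiate and a target of Oct4 and Sox2, gave 11.84, 11.90 and 11.87 at 2 h and 10.75, 10.66 and 10.37 at 4 h (-1.28 ± 0.10, adjusted p = 2.12e-05), and all 4 of its probe sets fell. Klf4 gave 11.90, 11.80 and 11.76 at 2 h and 11.23, 11.25 and 11.41 at 4 h (-0.52 ± 0.079, adjusted p = 7.71e-04), Zfp42 (Rex1) fell from 12.62 at 2 h to 12.01 at 4 h (-0.61 ± 0.11, adjusted p = 0.00239) and Esrrb fell from 11.80 at 2 h to 11.40 at 4 h (-0.40 ± 0.069, adjusted p = 0.00168). Pecam1, a surface protein of naive cells, fell from 8.50 at 2 h to 7.76 at 4 h (-0.74 ± 0.072, adjusted p = 5.55e-05). The groups of all these genes were apart.

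The core factors had small differences. Pou5f1 (Oct4) gave 13.19, 13.25 and 13.20 at 2 h and 13.24, 13.29 and 13.23 at 4 h, overlapping groups (0.04 ± 0.053, adjusted p = 0.623). Sox2 was 12.99 at 2 h to 12.80 at 4 h and did not pass (-0.19 ± 0.071, adjusted p = 0.0754), although it did without 4 h A and under 3 other settings. Nanog was lower (-0.27 ± 0.077, adjusted p = 0.0223), a call lost without any of 2 h A, 2 h C, 4 h B or 4 h C (adjusted p 0.017 to 0.084 over the 6 fits that left out 1 array). Against the trend of the list, Dppa2, which opens chromatin of bivalent genes, rose from 12.19 at 2 h to 12.91 at 4 h (0.72 ± 0.11, adjusted p = 6.75e-04) with both probe sets, as did Prdm14 and Gbx2.

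Of 15 genes of the primed epiblast 6 rose and 4 fell (fallers 1 to 3 with 1 of the 6 arrays left out, being 1 without 4 h C and 2 without 2 h A, 2 h B, 2 h C or 4 h B), with a median of 0.11. Pou3f1 (Oct6) rose from 9.80 at 2 h to 10.46 at 4 h (0.67 ± 0.11, adjusted p = 0.00124), and Wnt8a, a Wnt ligand of the primitive streak, rose from 5.28 at 2 h to 6.50 at 4 h (1.22 ± 0.19, adjusted p = 8.56e-04) from under the median signal. Lef1, a Wnt effector, gave 7.57, 7.58 and 7.54 at 2 h and 7.18, 6.95 and 6.89 at 4 h (-0.56 ± 0.13, adjusted p = 0.00762). In the LIF pathway, which keeps ES cells undifferentiated, 4 of 15 genes rose (risers 2 to 3 with 1 of the 6 arrays left out, being 2 without 2 h A, 2 h B or 4 h B) and 4 fell, with a median of -0.11. The receptor gene Lifr fell from 9.76 at 2 h to 9.03 at 4 h (-0.73 ± 0.10, adjusted p = 5.13e-04), and Bcl3, an IκB family target of the pathway, rose from 8.94 at 2 h to 9.70 at 4 h (0.76 ± 0.096, adjusted p = 2.34e-04).

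The FGF ligands Fgf4 and Fgf15 fell, and their receptors were called in both directions. Of 15 FGF genes 2 rose (13.3%, against 12.7% over all genes) and 3 fell (20%, against 11.9%), with a median of -0.05. Besides Fgf4, Fgf15 gave 8.25, 8.35 and 8.25 at 2 h and 7.46, 7.57 and 7.24 at 4 h (-0.86 ± 0.10, adjusted p = 1.42e-04). Of 16 ERK feedback genes 3 rose (18.8%, against 12.7% over all genes) and 2 fell (12.5%, against 11.9%), with a median of -0.06. Etv4, an ETS factor downstream of FGF, gave 9.97, 9.73 and 9.69 at 2 h and 10.75, 10.90 and 10.73 at 4 h (1.00 ± 0.11, adjusted p = 1.18e-04), and Spred1, an inhibitor of the ERK cascade, rose from 10.19 at 2 h to 10.76 at 4 h (0.58 ± 0.13, adjusted p = 0.00685). Of 21 immediate early genes 6 fell (3 to 5 with 1 of the 6 arrays left out, being 3 without 2 h A, 2 h C or 4 h C) and 1 rose, with a median of -0.17. Ccn1 fell from 10.93 at 2 h to 9.70 at 4 h (-1.23 ± 0.27, adjusted p = 0.00605) with all 4 of its probe sets, and Fos fell from 12.47 at 2 h to 11.91 at 4 h (-0.55 ± 0.11, adjusted p = 0.00367).

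BMP pathway genes rose more often than they fell. Of 19 genes 6 rose (31.6%, against 12.7% over all genes) and 2 fell (10.5%, against 11.9%), with a median of 0.07. Beside Bmp4, the receptor-activated transducers Smad1 (9.39 at 2 h to 10.18 at 4 h, 0.79 ± 0.15, adjusted p = 0.00239) and Smad5 (8.75 at 2 h to 9.28 at 4 h, 0.53 ± 0.088, adjusted p = 0.00131) rose. The Id genes, targets of the pathway, fell or were not called. Id2 gave 8.69, 8.95 and 9.02 at 2 h and 7.96, 7.77 and 7.99 at 4 h (-0.98 ± 0.21, adjusted p = 0.00581), a call lost when probe sets whose name carries a cross-hybridization suffix were left out (the suffix-free probe sets). Id1 was 10.69 at 2 h to 10.77 at 4 h and Id3 10.60 at 2 h to 10.25 at 4 h, neither called (0.08 ± 0.33 and -0.35 ± 0.38). The arrays of Id3 did not overlap, and it passed in the fits of only the 6 compared or only the 9 RA arrays and in the fit without untreated C.

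Nodal signalling genes were called in 1 direction, with 4 of 15 lower (1 to 3 with 1 of the 6 arrays left out, being 1 without 2 h C, 4 h B or 4 h C and 2 without 2 h A or 2 h B) and a median of -0.09. Pmepa1, a feedback inhibitor of SMAD signalling, gave 9.70, 9.83 and 9.69 at 2 h and 9.12, 9.03 and 9.12 at 4 h (-0.65 ± 0.059, adjusted p = 4.07e-05) with all 3 of its probe sets. Nodal itself was lower (-0.41 ± 0.11, adjusted p = 0.0157), a call lost without any of 2 h C, 4 h B or 4 h C (adjusted p 0.0334 to 0.0554 over the 6 fits that left out 1 array). Of 22 Notch genes 8 fell (5 to 6 with 1 of the 6 arrays left out, being 5 without 2 h B or 4 h A) and 1 rose, with a median of -0.08. Hes1, the repressor that Notch switches on, gave 9.33, 9.30 and 9.30 at 2 h and 8.85, 8.68 and 8.67 at 4 h (-0.58 ± 0.11, adjusted p = 0.00254), Notch1 fell by 0.47 on the log2 scale (adjusted p = 0.0042) and Rbpj, the DNA-binding partner of the receptor, by 0.38 (adjusted p = 0.0028).

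Of 28 Wnt genes 6 rose (21.4%, against 12.7% over all genes) and 5 fell (17.9%, against 11.9%), with a median of 0.03. Tcf7l2 rose from 7.66 at 2 h to 8.27 at 4 h (0.62 ± 0.074, adjusted p = 1.79e-04) and the receptor Fzd5 fell from 10.71 at 2 h to 10.02 at 4 h (-0.70 ± 0.10, adjusted p = 5.57e-04). Of 14 Hippo pathway genes 5 fell (3 with 1 of the 6 arrays left out) and 2 rose, with a median of -0.20. The kinase gene Lats1 fell from 9.41 at 2 h to 8.86 at 4 h (-0.55 ± 0.11, adjusted p = 0.00437) beside Amotl2 and Ccn1. Of 18 Eph receptors and ephrins 3 rose (16.7%, against 12.7% over all genes) and 2 fell (11.1%, against 11.9%), with a median of 0.03. The ligands Efna1 (1.21 ± 0.30, adjusted p = 0.0123) and Efna4 (0.54 ± 0.079, adjusted p = 6.11e-04) rose, Efna1 from under the median signal.

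Among the lists of cell functions, lysosome and autophagy genes had the highest share called in a single direction. Of 28 measured genes 14 fell (13 to 14 with 1 of the 6 arrays left out) and the rest were not called, with a median of -0.24. Lamp2, a membrane protein of lysosomes, gave 10.90, 11.03 and 11.01 at 2 h and 10.09, 9.94 and 9.83 at 4 h (-1.02 ± 0.11, adjusted p = 1.18e-04), and all 4 of its probe sets fell. Hexa, a lysosomal hexosaminidase, gave 11.35, 11.40 and 11.49 at 2 h and 10.79, 10.66 and 10.66 at 4 h (-0.71 ± 0.10, adjusted p = 5.79e-04). Tfe3, a transcription factor of lysosomal genes that also opposes exit from the ES cell state, fell from 11.01 at 2 h to 10.46 at 4 h (-0.55 ± 0.096, adjusted p = 0.00174). The sialidase Neu1, the galactosidases Gla and Glb1, the cholesterol exporters Npc1 and Npc2, the cathepsins Ctsl and Ctsz, and the autophagy genes Ulk1, Wipi1, Atg12 and Gabarapl1 made up the other called genes, with differences of -0.70 to -0.24. The call of Neu1 was lost as the mean of its 3 probe sets, and that of Ctsz without any 1 of the 6 arrays (adjusted p 0.0528 to 0.0919 over the 6 fits). With suffix-free probe sets alone, 10 members fell.

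Ribosome biogenesis genes were called in the other direction. Of 52 measured genes 24 rose and none fell, with a median of 0.17, and 28 had an unadjusted p under 0.05. The count was 15 to 22 with 1 of the 6 arrays left out, fewest without 4 h B, and 1 to 3 members were called lower under several other settings. Nop56, a core protein of box C/D snoRNPs, gave 12.33, 12.28 and 12.14 at 2 h and 12.79, 12.91 and 12.88 at 4 h (0.61 ± 0.075, adjusted p = 1.96e-04). Utp20 and Rrp12, factors of the small subunit, rose by 0.59 and 0.52, and Noc3l, of the large subunit, by 0.52. The RNA polymerase I subunits Polr1a, Polr1b and Polr1e rose by 0.35 to 0.46. The abundant nucleolar genes Ncl (0.01) and Npm1 (-0.01) were not called. Of 31 ribosomal protein genes themselves 3 rose, 9.68%, under the 12.7% over all genes, with a median of 0.00.

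**Figure D3:**
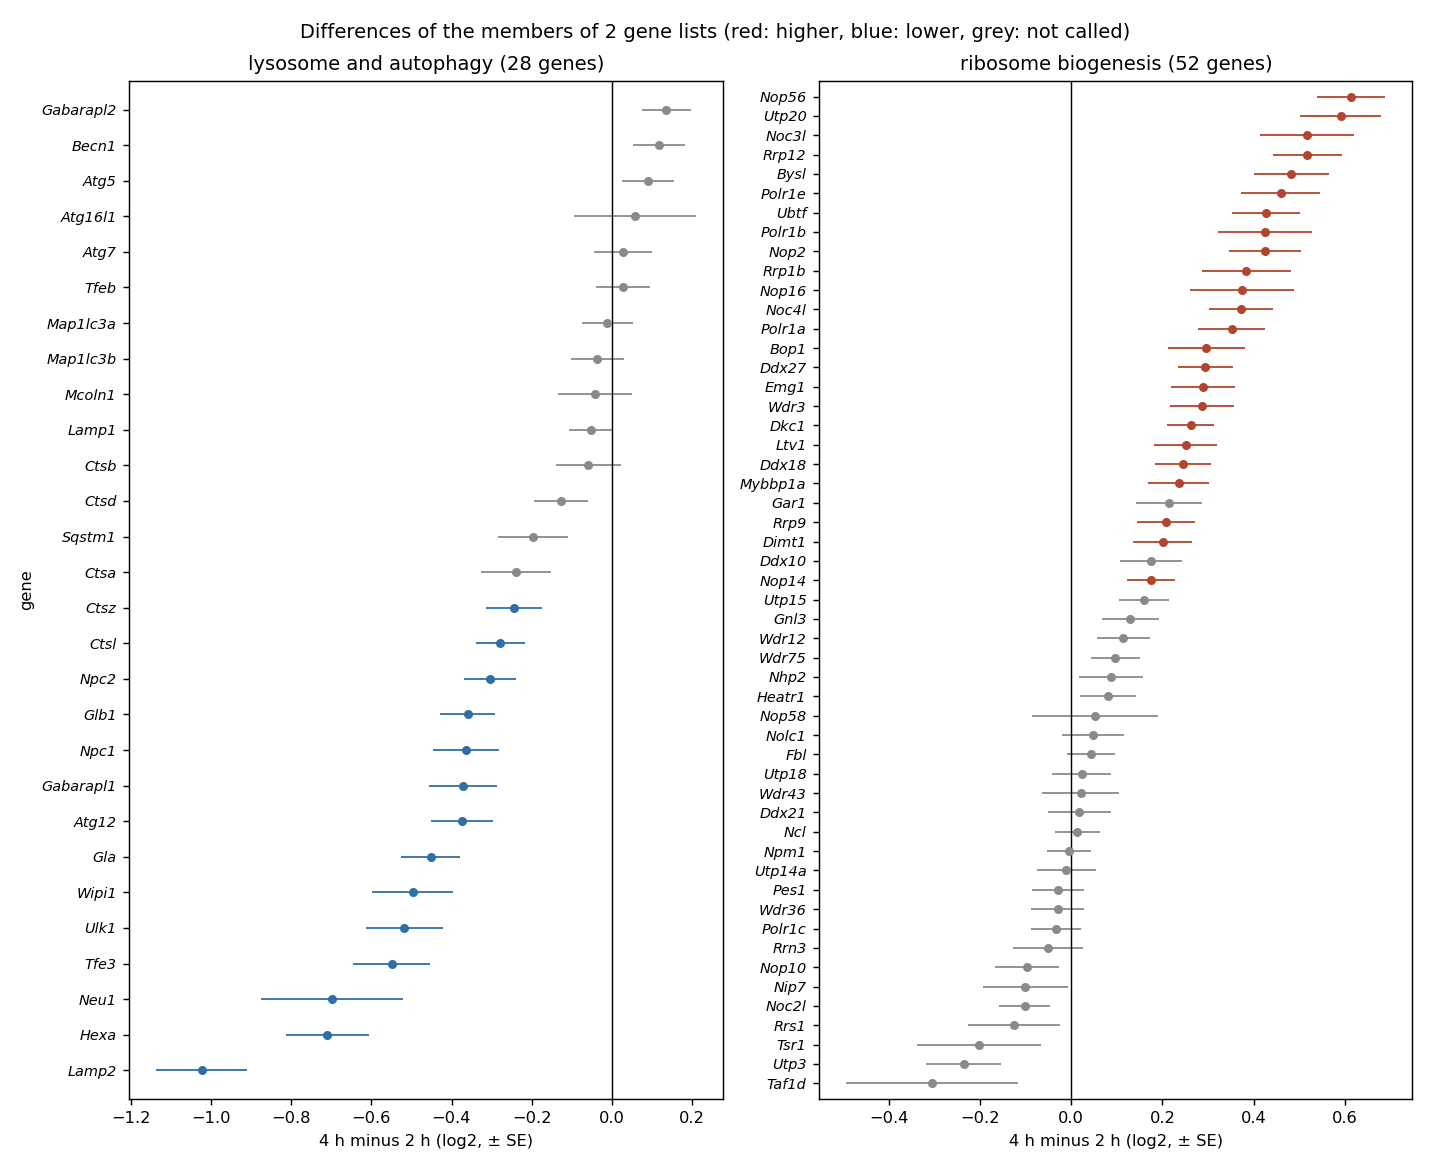
Difference between 4 h and 2 h (horizontal axis, log2, with SE bars) of the 28 lysosome and autophagy genes on the left and the 52 ribosome biogenesis genes on the right. Blue points were called lower, red points higher and grey points were not called. Lamp2, Hexa and Neu1 lie lowest on the left, and Nop56 and Utp20 highest on the right.

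Hypoxia, glycolysis and cholesterol genes fell more often than they rose. Of 31 hypoxia and glycolysis genes 11 fell (7 to 10 with 1 of the 6 arrays left out, being 7 without 2 h C) and 4 rose (2 with 1 of the 6 arrays left out), with a median of -0.12. Beside Ndrg1, the mitophagy receptor Bnip3 fell from 12.90 at 2 h to 11.88 at 4 h (-1.02 ± 0.09, adjusted p = 3.44e-05), and the glycolytic genes Hk1 and Pfkp fell by 0.60 and 0.49 on the log2 scale. Ankrd37, a HIF target, rose from 8.45 at 2 h to 9.60 at 4 h (1.15 ± 0.21, adjusted p = 0.00254). Of 21 cholesterol synthesis genes 7 fell and 3 rose, with a median of -0.12. Insig1, the sensor that retains SREBP, fell from 10.34 at 2 h to 9.54 at 4 h (-0.81 ± 0.081, adjusted p = 6.47e-05) and Cyp51 fell from 9.73 at 2 h to 8.81 at 4 h (-0.91 ± 0.18, adjusted p = 0.00352).

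Of 14 fatty acid synthesis genes 3 rose and 2 fell, with a median of -0.03. Fasn, the synthase, rose from 11.53 at 2 h to 11.92 at 4 h (0.38 ± 0.075, adjusted p = 0.00336) and Gpam, which starts glycerolipid synthesis, from 9.12 at 2 h to 9.45 at 4 h (0.33 ± 0.067, adjusted p = 0.00434). Of 46 respiratory chain genes 3 rose (0 to 3 with 1 of the 6 arrays left out, being 0 without 2 h A, 2 h C or 4 h C and 1 without 4 h B) and 1 fell, 6.52% and 2.17%, both under the shares over all genes. Of 31 proteasome subunits 3 rose (1 to 2 with 1 of the 6 arrays left out, being 1 without 2 h A, 2 h B, 2 h C, 4 h B or 4 h C), Psmc4 by the most (0.32 ± 0.061, adjusted p = 0.00288), and none fell.

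Of 20 heat shock genes 7 rose and 2 fell, with a median of 0.12. The inducible chaperones Hspa1b (8.65, 8.62 and 8.77 at 2 h and 9.68, 9.46 and 9.46 at 4 h, 0.85 ± 0.087, adjusted p = 7.05e-05) and Hsph1 (11.75 at 2 h to 12.41 at 4 h, 0.65 ± 0.12, adjusted p = 0.0019) rose, and Hspa1a, whose copy is near identical to Hspa1b so that their probes may share signal, rose by 0.92. The small chaperone Hspb8 fell from 9.08 at 2 h to 8.05 at 4 h (-1.03 ± 0.13, adjusted p = 2.74e-04). Of 26 genes of the unfolded protein response 5 rose and 4 fell (fallers 1 to 3 with 1 of the 6 arrays left out, being 1 without 2 h A, 2 h B or 4 h B and 2 without 4 h A or 4 h C), with a median of 0.01. Xbp1, its transcription factor, gave 11.16, 11.06 and 11.16 at 2 h and 11.79, 11.87 and 12.17 at 4 h (0.82 ± 0.13, adjusted p = 9.74e-04) with all 4 of its probe sets, and Syvn1, a ubiquitin ligase of ER-associated degradation, rose from 9.30 at 2 h to 9.83 at 4 h (0.53 ± 0.056, adjusted p = 8.30e-05).

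In the amino acid stress programme of ATF4, 3 of 29 genes were higher (10.3%, against 12.7% over all genes) and 2 lower (6.9%, against 11.9%). The median was 0.08. Chac1, a glutathione-degrading enzyme of that programme, gave 11.47, 11.35 and 11.30 at 2 h and 11.63, 11.67 and 11.63 at 4 h (0.27 ± 0.17, adjusted p = 0.292), after an increase from 8.52 in untreated cells to 11.38 at 2 h. Trib3 was 9.95 at 2 h to 10.02 at 4 h (0.07 ± 0.081, adjusted p = 0.582). Mthfd2, a mitochondrial folate enzyme, rose from 11.37 at 2 h to 11.69 at 4 h (0.32 ± 0.074, adjusted p = 0.00869) with both probe sets. Of 21 aminoacyl tRNA synthetase genes 5 rose (1 to 4 with 1 of the 6 arrays left out, being 1 without 2 h C or 4 h B, 2 without 2 h B or 4 h C and 3 without 2 h A), with a median of 0.09. Aimp2, a scaffold of the synthetase complex, was the largest of them (0.30 ± 0.077, adjusted p = 0.0153), a call lost without 2 h C (adjusted p 0.0292 to 0.0666 over the 6 fits that left out 1 array).

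More mitosis genes fell than rose, by small amounts. Of 35 measured, 13 fell and 1 rose, with a median of -0.12. Cdc25b, the phosphatase that triggers entry into mitosis, gave 8.46, 8.51 and 8.67 at 2 h and 7.79, 7.84 and 7.79 at 4 h (-0.74 ± 0.091, adjusted p = 2.02e-04). Prc1, a protein of the spindle midzone, fell from 11.65 at 2 h to 11.21 at 4 h (-0.43 ± 0.062, adjusted p = 5.29e-04) with both probe sets, and Ccnf, the cyclin that marks proteins for degradation, rose from 10.33 at 2 h to 10.81 at 4 h (0.48 ± 0.085, adjusted p = 0.00185) with 1 of its 2 probe sets called. As means of probe sets 7 of the list were lower, and with suffix-free probe sets 8 were lower and 4 higher. DNA replication genes were called at 7.69% in each direction, with 3 of 39 higher (0 to 2 with 1 of the 6 arrays left out, being 0 without 2 h C or 4 h B and 1 without 4 h A), 3 lower (0 to 1 with 1 of the 6 arrays left out) and a median of -0.02.

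Of 23 G1 genes 4 rose (17.4%, against 12.7% over all genes) and 3 fell (13%, against 11.9%), with a median of 0.06. Rbl2, the pocket protein p130, rose from 6.97 at 2 h to 7.63 at 4 h (0.65 ± 0.10, adjusted p = 8.88e-04), E2f1 fell from 9.56 at 2 h to 9.22 at 4 h (-0.34 ± 0.07, adjusted p = 0.00462) and the inhibitor Cdkn2d rose from 8.97 at 2 h to 9.38 at 4 h (0.41 ± 0.089, adjusted p = 0.00611). Of 23 p53 targets 6 rose and 1 fell, with a median of 0.14. Perp (0.66 ± 0.13, adjusted p = 0.00293), the death receptor gene Tnfrsf10b (0.56 ± 0.063, adjusted p = 1.19e-04) and Rprm (0.49 ± 0.085, adjusted p = 0.00166) rose, Tnfrsf10b from under the median signal, whereas Cdkn1a (p21) was 11.37 at 2 h to 11.27 at 4 h and was not called (-0.10 ± 0.13, adjusted p = 0.626). In the Myc network 3 of 12 genes fell and 1 rose, with a median of -0.10. Mycn gave 12.22, 12.02 and 12.03 at 2 h and 11.46, 11.43 and 11.01 at 4 h (-0.79 ± 0.17, adjusted p = 0.00521), Mnt fell from 10.40 at 2 h to 9.33 at 4 h (-1.07 ± 0.22, adjusted p = 0.00484) and Myc was not called (0.21 ± 0.44, adjusted p = 0.787).

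In the splicing machinery 7 of 40 genes rose and 1 fell, with a median of 0.04. Beside Clk2, the related kinases Clk1 (11.03, 10.95 and 10.89 at 2 h and 11.80, 11.76 and 11.76 at 4 h, 0.82 ± 0.072, adjusted p = 3.45e-05) and Clk4 (8.57 at 2 h to 9.15 at 4 h, 0.58 ± 0.068, adjusted p = 1.58e-04) rose, so 3 kinases of the family rose at this step. Clk1 and Clk4 had been called lower at 2 h than in untreated cells (-0.43, adjusted p = 0.00797, and -0.33, adjusted p = 0.0253). At 4 h they were above untreated cells by 0.39 and 0.25 (adjusted p = 0.002 and 0.0182). Ptbp2, the neural PTB protein, rose from 10.98 at 2 h to 11.40 at 4 h (0.42 ± 0.059, adjusted p = 5.04e-04). Of 14 genes of the super elongation complex and P-TEFb, which release paused RNA polymerase, 4 fell and 3 rose, with a median of -0.08. Aff3 gave 8.63, 8.64 and 8.54 at 2 h and 7.48, 7.75 and 7.85 at 4 h (-0.91 ± 0.096, adjusted p = 8.56e-05) and Aff1 fell from 9.05 at 2 h to 8.43 at 4 h (-0.62 ± 0.12, adjusted p = 0.00256), as did Mllt3, and each of these is a scaffold or reader subunit. Only 1 of the 2 probe sets of Aff3 and 1 of the 3 of Aff1 were called.

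Polycomb genes were called often and in both directions, with 7 of 24 higher and 5 lower (fallers 3 to 4 with 1 of the 6 arrays left out, being 3 without 2 h A, 2 h B, 2 h C, 4 h A or 4 h B) and a median of 0.08. Bmi1, also named Pcgf4, rose from 6.93 at 2 h to 7.62 at 4 h (0.68 ± 0.089, adjusted p = 2.93e-04) with both probe sets, and its relative Pcgf5 gave 10.10, 10.24 and 10.13 at 2 h and 9.39, 9.40 and 9.45 at 4 h (-0.75 ± 0.086, adjusted p = 1.42e-04). Cbx2, a reader of the Polycomb mark, rose from 7.92 at 2 h to 8.46 at 4 h (0.54 ± 0.097, adjusted p = 0.00197), with 1 of its 2 probe sets called. It had been called lower at 2 h than in untreated cells (-0.58, adjusted p = 0.00763), where its mean was 8.50. Between untreated cells and 4 h Cbx2 was not called (-0.04, adjusted p = 0.839). Of 11 DNA methylation genes 3 rose and 3 fell (fallers 0 to 2 with 1 of the 6 arrays left out, being 0 without 2 h A, 2 h B or 4 h C and 1 without 2 h C or 4 h A), with a median of -0.03. Tet2, which oxidises methylated cytosine, rose from 10.58 at 2 h to 11.07 at 4 h (0.49 ± 0.089, adjusted p = 0.00225) with both probe sets, and Mbd3, of the NuRD complex, from 10.24 at 2 h to 10.60 at 4 h (0.36 ± 0.076, adjusted p = 0.00494).

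Of 31 histone methylation enzymes 7 rose (1 to 6 with 1 of the 6 arrays left out, being 1 without 4 h B, 2 without 2 h C, 3 without 4 h C and 4 without 2 h A or 2 h B) and 3 fell (1 to 2 with 1 of the 6 arrays left out, being 1 without 2 h B or 4 h C), with a median of 0.07. Smyd2 rose by the most (10.96 at 2 h to 11.38 at 4 h, 0.42 ± 0.082, adjusted p = 0.00334). Of 25 chromatin remodelling genes 7 rose (3 to 6 with 1 of the 6 arrays left out, being 3 without 2 h B or 4 h B and 4 without 2 h A or 2 h C) and 4 fell, with a median of 0.02. Chd7, the remodeller of neural crest genes, rose from 9.37 at 2 h to 10.13 at 4 h (0.76 ± 0.12, adjusted p = 7.84e-04) with both probe sets. Arid1b, a BAF subunit, fell from 8.80 at 2 h to 8.33 at 4 h (-0.46 ± 0.071, adjusted p = 8.28e-04) and returned to 8.77 at 6 h (-0.90 ± 0.12, adjusted p = 0.00297 for the difference between the steps).

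Surface and adhesion genes fell more often than they rose. Of 32 cadherin and adhesion genes 7 fell and 2 rose, with a median of -0.07. Cdh3 (P-cadherin) gave 8.71, 8.70 and 8.81 at 2 h and 8.09, 7.95 and 7.73 at 4 h (-0.81 ± 0.092, adjusted p = 1.31e-04), and the tight junction genes Cldn4 (11.44 at 2 h to 10.52 at 4 h, -0.93 ± 0.19, adjusted p = 0.00397) and Cldn7 (11.02 at 2 h to 10.38 at 4 h, -0.63 ± 0.13, adjusted p = 0.00464) fell. Only 1 of the 2 probe sets of Cdh3 was called. Of 37 glycan enzymes 9 fell and 4 rose (risers 2 to 4 with 1 of the 6 arrays left out, being 2 without 2 h A or 4 h C), with a median of -0.09. Beside Fut9 and Hs6st1, St8sia1, the GD3 ganglioside synthase, fell from 7.05 at 2 h to 5.82 at 4 h (-1.23 ± 0.15, adjusted p = 1.79e-04) with all 3 of its probe sets. In heparan sulfate synthesis the 6-O-sulfotransferase Hs6st1 thus fell while the 3-O-sulfotransferase Hs3st3b1 rose.

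Of 27 axon guidance genes 5 rose (18.5%, against 12.7% over all genes) and 4 fell (14.8%, against 11.9%), with a median of -0.03. Ntn1 (netrin-1) rose from 9.36 at 2 h to 10.27 at 4 h (0.91 ± 0.15, adjusted p = 0.00137), the semaphorin Sema3e from 7.80 at 2 h to 8.48 at 4 h (0.68 ± 0.13, adjusted p = 0.00291) with all 4 of its probe sets, and the receptor Nrp1 from 5.63 at 2 h to 6.50 at 4 h (0.87 ± 0.19, adjusted p = 0.0063), starting under the median signal. The receptor Robo1 fell from 7.03 at 2 h to 6.37 at 4 h (-0.66 ± 0.094, adjusted p = 5.06e-04). Of 19 interferon and NF-κB targets 3 fell and 1 rose, with a median of -0.07. Nfkbia, the inhibitor that NF-κB induces, fell from 12.63 at 2 h to 12.25 at 4 h (-0.37 ± 0.079, adjusted p = 0.00523) with all 5 of its probe sets.

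Of 20 orphan nuclear receptors 4 rose and 2 fell, with a median of -0.02. Beside Nr6a1, Ppard, a fatty acid receptor, rose from 8.60 at 2 h to 9.09 at 4 h (0.49 ± 0.096, adjusted p = 0.00356), and Nr1d2, a repressor of the clock, fell from 10.76 at 2 h to 10.31 at 4 h (-0.44 ± 0.092, adjusted p = 0.00462). Of 17 clock genes 4 rose (0 to 2 with 1 of the 6 arrays left out) and 4 fell, with a median of 0.06. The largest change in that list was Per3, from 7.30 at 2 h to 6.39 at 4 h (-0.91 ± 0.17, adjusted p = 0.00218), a call lost as the mean of its 6 probe sets.

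**Figure D4:**
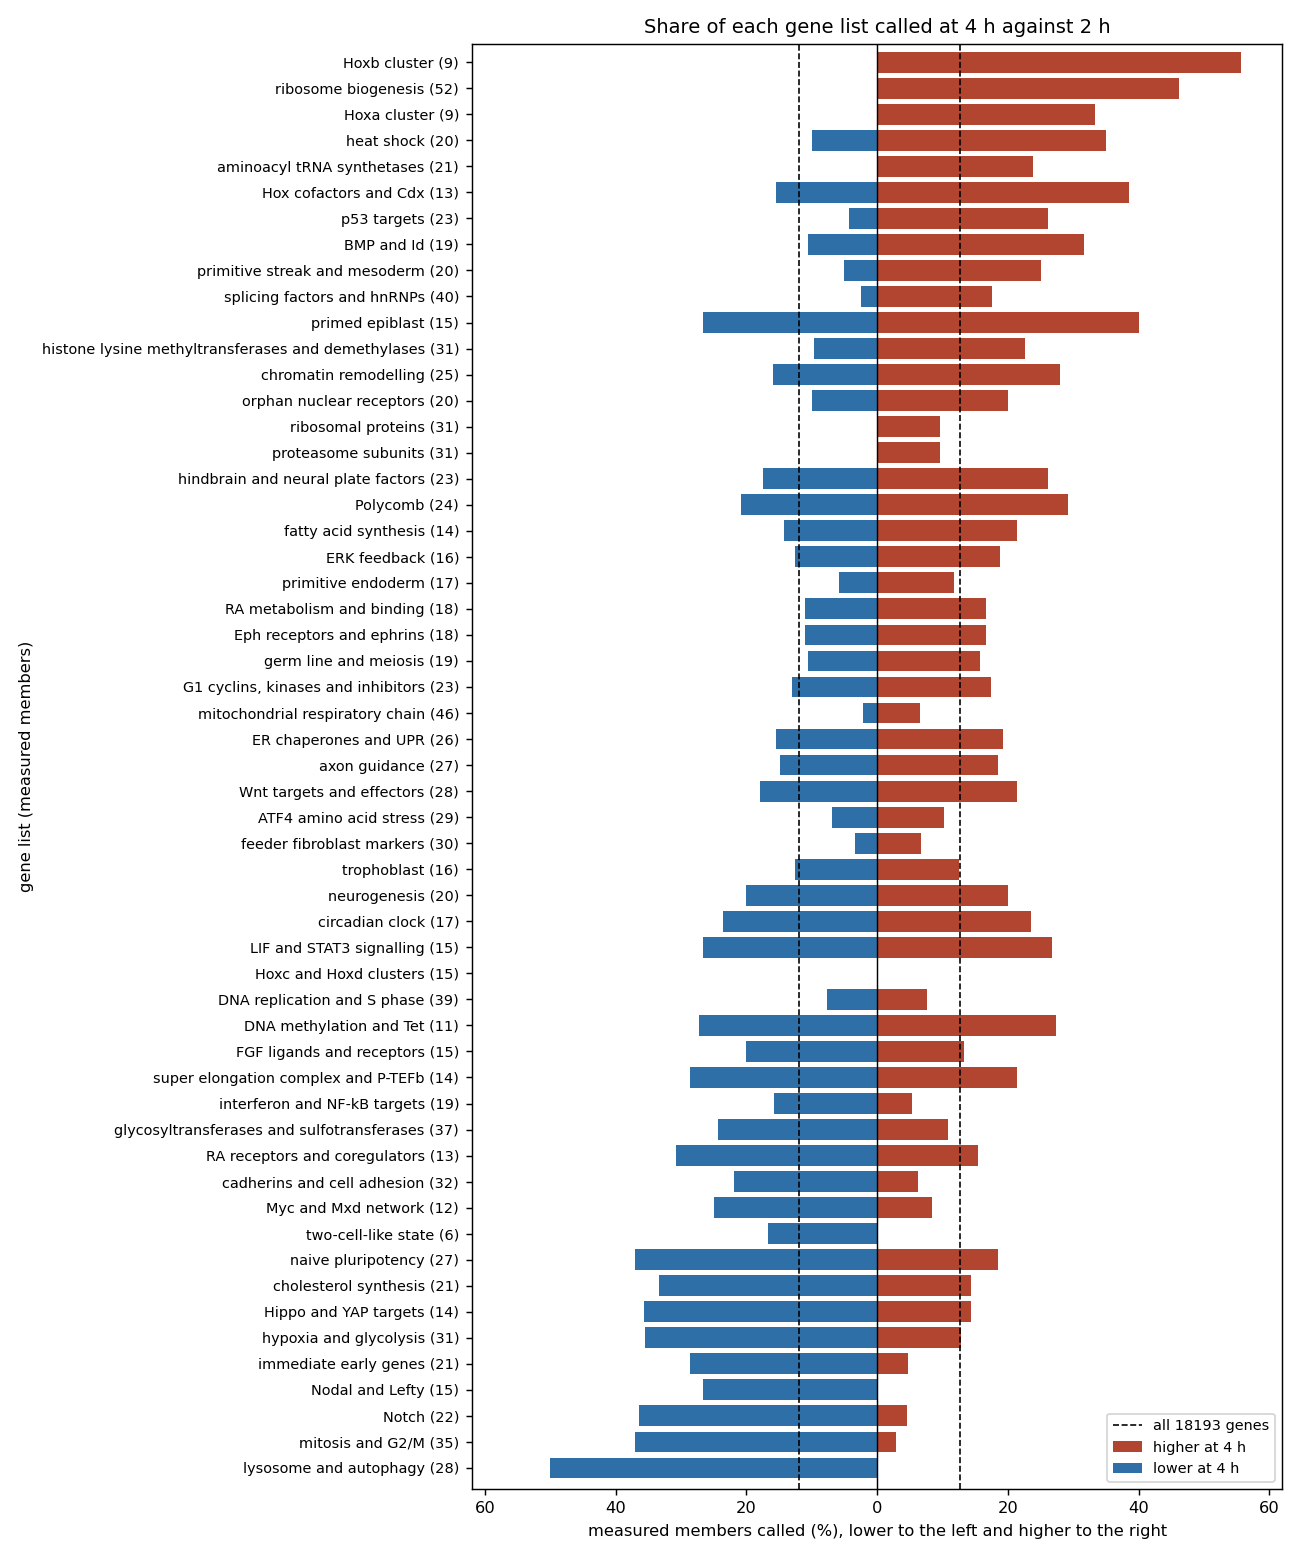
Share of the measured members of each of 55 gene lists called at 4 h against 2 h, lower to the left in blue and higher to the right in red, with the number of measured members in brackets. Dashed lines mark the shares over all 18193 genes, 11.9% lower and 12.7% higher. The Hoxb cluster and ribosome biogenesis reach farthest right, and lysosome and autophagy farthest left.

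Genes of other cell types were called in both directions. Of 20 primitive streak and mesoderm genes 5 rose (25%, against 12.7% over all genes) and 1 fell (5%, against 11.9%). The median was 0.00, and 13 were under the median signal at both times. Tcf15, a mesoderm factor also found in ES cells primed to differentiate, gave 10.85, 10.80 and 10.60 at 2 h and 11.50, 11.57 and 11.86 at 4 h (0.89 ± 0.13, adjusted p = 5.79e-04), and Eomes rose from 8.04 at 2 h to 8.59 at 4 h (0.55 ± 0.088, adjusted p = 0.00105) with both probe sets. Of 17 primitive endoderm genes 2 rose (11.8%) and 1 fell (5.88%), with a median of -0.01. Gata6 rose from 6.53 at 2 h to 7.15 at 4 h (0.62 ± 0.10, adjusted p = 0.00145), while Sox17 was not called (-0.14 ± 0.12, adjusted p = 0.419), and the mean level of the list was 7.81 to 7.94 at 2 h and 7.82 to 7.93 at 4 h. Of 16 trophoblast genes 2 rose and 2 fell (12.5% each, near the shares over all genes), with a median of -0.08. Tfap2c, which trophoblast shares with germ cells, fell from 10.89 at 2 h to 10.45 at 4 h (-0.44 ± 0.084, adjusted p = 0.00278), a call lost with suffix-free probe sets.

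Of 19 germ line genes 3 rose (1 to 2 with 1 of the 6 arrays left out, being 1 without 2 h C) and 2 fell, with a median of -0.08. These shares, 15.8% higher and 10.5% lower, were near the 12.7% and 11.9% over all genes. Beside Prdm14, the meiotic cohesin Rec8 fell from 8.39 at 2 h to 7.72 at 4 h (-0.66 ± 0.11, adjusted p = 0.00144) and the meiotic factor Meioc from 7.25 at 2 h to 6.30 at 4 h (-0.95 ± 0.16, adjusted p = 0.00118). Stra8, the RA-induced gene of meiotic entry, gave 11.06, 10.91 and 10.91 at 2 h and 11.57, 11.62 and 12.52 at 4 h. Its arrays did not overlap, yet it did not pass (0.95 ± 0.33, adjusted p = 0.0549), and it passed in 7 other settings. Of 6 measured genes of the 2-cell-like state 1 fell, Tdpoz1 (-0.39 ± 0.083, adjusted p = 0.00523), under the median signal.

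Of 30 feeder fibroblast markers 2 rose (6.67%, against 12.7% over all genes) and 1 fell (3.33%, against 11.9%), with a median of 0.02. Twist1 rose from 5.87 at 2 h to 6.47 at 4 h (0.59 ± 0.09, adjusted p = 7.65e-04), Twist2 rose by 0.38, a call lost without any of 2 h B, 2 h C, 4 h B or 4 h C (adjusted p 0.0219 to 0.0705 over the 6 fits that left out 1 array), and Mmp2 fell from 8.92 at 2 h to 8.55 at 4 h (-0.37 ± 0.087, adjusted p = 0.00983). Col1a1 was 8.42 at 2 h to 8.54 at 4 h with overlapping groups (0.11 ± 0.17, adjusted p = 0.689), its sign turning without 4 h C. The median level of the list was 8.61 to 8.89 at 2 h and 8.66 to 8.81 at 4 h, ranges that overlap.

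Gene length differed between the genes that rose and those that fell. Over 18029 genes with a RefSeq length, the median length was 17.84 kb for genes that rose, 32.52 kb for genes that fell and 19.15 kb for genes not called. The contrast was not particular to this step. From untreated cells to 2 h the medians were 20.35 kb for genes higher and 42.29 kb for genes lower, and at 6 h against untreated cells 17.01 and 34.5 kb. Between 4 h and 6 h, where few genes were called, the order was the other way (114.1 and 58.35 kb). Split into 5 equal groups by length, in the shortest genes 12.8% rose and 6.54% fell. In the longest, from 64255 bases, 9.6% rose and 19.4% fell. The share that fell was 8.98%, 11.7% and 13% in the 3 groups between.

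The same held among genes whose mean was above the median signal, where 20.9% rose and 9.33% fell in the shortest group, and 13.5% rose and 25.2% fell in the longest. With suffix-free probe sets, 5.99% of the shortest and 18.4% of the longest group fell. Across genes, which are not independent replicates, Spearman's rho between length and difference was -0.11 over 18029 genes, and rho between length and signal was 0.08. The part of signal level in the pattern was not tested beyond these values. Of the genes that fell, Fut9 spans 190.7 kb, Mllt3 263.5 kb and Frmd4b 330.8 kb, while the rising Zfp423 spans 300.2 kb and Meis2 206.3 kb.

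**Figure D5:**
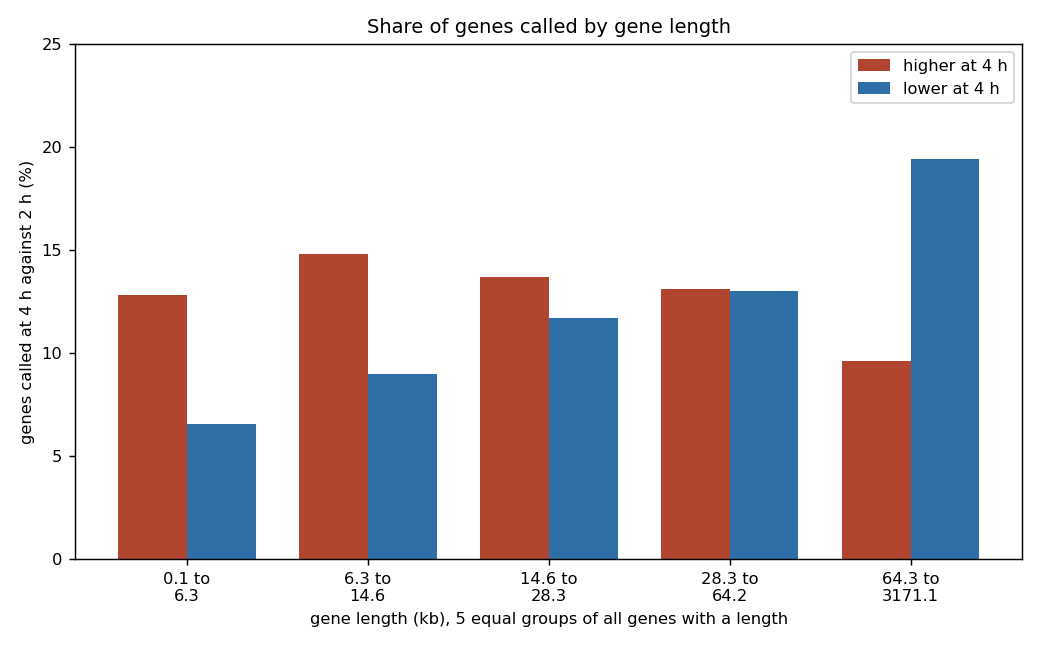
Share of genes called higher (red) and lower (blue) at 4 h than at 2 h, in percent, for 5 equal groups of 18029 genes by length in kb. The share lower goes from 6.54% in the shortest group to 19.4% in the longest, and the share higher from 12.8% to 9.6%.

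The step from 2 h to 4 h was then set against its neighbours by testing the difference between steps, with limma over all genes. The step differed from that between untreated cells and 2 h in 1609 genes (8.84%), 949 above 0 (5.22%) and 660 below (3.63%), and from that between 4 h and 6 h in 750 genes (4.12%), 338 above 0 (1.86%) and 412 below (2.26%). With 1 of the 6 arrays left out, 204 to 480 genes differed from the later step, fewest without 4 h B, and 445 to 1190 from the earlier, while without untreated C the counts were 2030 and 2884. In single steps, 488 genes (2.68%) were called between untreated cells and 2 h, 1.5% higher and 1.19% lower, and 107 (0.588%) between 4 h and 6 h, 0.313% higher and 0.275% lower. The untreated arrays were more spread than the others, and the first step may also hold a change of medium.

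Some genes had a step from 2 h to 4 h that differed from both neighbouring steps. The step and both differences had an adjusted p under 0.05 and the same sign, as the choice of these genes required. The earlier step shares the 2 h arrays with this step, and the later step shares the 4 h arrays. Signs were counted, so a neighbouring step in the other direction added to the difference. Cebpd had means of 6.75, 6.29, 7.86 and 7.80 in untreated cells and at 2, 4 and 6 h, and its step exceeded the later by 1.63 ± 0.17, adjusted p = 0.00105. It had been called lower at 2 h than in untreated cells (-0.46, adjusted p = 0.0346). Bmp4 had means of 9.12, 8.99, 10.51 and 10.42 (1.62 ± 0.22, adjusted p = 0.0032) and Gbx2 of 8.32, 8.48, 10.06 and 10.02 (1.62 ± 0.40, adjusted p = 0.0456). None of these 3 genes was called between 4 h and 6 h. Hs3st3b1 had means of 7.09, 5.97, 7.62 and 7.50 (1.77 ± 0.19, adjusted p = 0.00105), falling before it rose.

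On the falling side Ndrg1 had means of 8.85, 8.97, 7.17 and 7.29 (-1.94 ± 0.19, adjusted p = 8.59e-04), Hs6st1 of 10.96, 11.48, 9.99 and 10.03 (-1.52 ± 0.34, adjusted p = 0.0281) and Mipol1 of 8.04, 7.84, 6.14 and 6.07 (-1.63 ± 0.22, adjusted p = 0.00245). None of the 3 was called between untreated cells and 2 h or between 4 h and 6 h. Ager, a receptor of glycated proteins, had means of 6.20, 7.20, 6.16 and 6.74 (-1.62 ± 0.22, adjusted p = 0.00245), so it rose by 2 h and fell by 4 h, and its later change was not called. Its call at the 2 h to 4 h step (-1.04 ± 0.12) was lost with suffix-free probe sets. After 4 h, Zfp423 went on from 10.76 to 11.40, and Hoxb1 was 9.14 at 4 h and 9.38 at 6 h.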

How the data were processed

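RNA of 12 samples was measured on Affymetrix arrays, in 4 groups of 3 placed by their labels, and 6 arrays are compared here. The authors deposited 45101 log2 values per array. Array medians lay between 6.05 and 6.10, and limma 3.4.3 is named in the submitters' processing notes. The normalization method is not given in the sources used here, and none was added. A single gene was named by 34945 probe sets and several genes by 932, and 9224 had no gene or were controls. Each of 18193 genes was represented by its brightest probe set on average, so values compare arrays and never genes with each other. Where the text is silent on a gene's other probe sets, they need not have been called. The number of arrays limits the precision of every value.

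A model of 4 group means was fitted to all 12 arrays by lmFit and eBayes of limma 3.58.1 (R 4.3.3), where 8 residual degrees of freedom joined 3.78 prior ones, with Benjamini-Hochberg adjustment over all genes. A gene was called at an adjusted p under 0.05. The median of all values, 6.07, marks low signal. The fits were tested on simulated data.

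The comparison and the 55 gene lists were chosen with earlier results of these data known. Named genes are the 15 largest rises and falls with no overlap of arrays, up to 4 called members of each list (or, with fewer than 2 called, the 2 that changed most), a fixed set, and the 5 genes in each direction whose step differed most from both its neighbours, signs counted. Promoters shown are those of up to 3 called risers with a direct repeat and of 1 Hox gene, with windows on 1 chromosome left out of the choice. Rarb was added because of its known element. Hk1, Pfkp, Notch1, Rbpj, Ncl, Npm1, the RNA polymerase I subunits and the further lysosome genes were chosen after their values were seen. Gene lengths and promoters come from RefSeq tables, the promoters of GRCm38.p6.

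The alternatives were another choice or mean of probe sets, quantile normalization, median centring, a filter on dim genes, a trended robust variance, array weights, fits of 6 or 9 arrays, the replicate letter as a block, other thresholds and leaving out each of the 6 arrays or untreated C. Figures used matplotlib 3.10.9 in Python 3.11.15.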

Additional observations from a re-analysis of the deposited data

Results flagged for a closer look

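The step from 2 h to 4 h differed from its neighbours by limma's test of the difference between steps. Against the step from 4 h to 6 h, 338 genes were above 0 and 412 below. Against the step from untreated cells to 2 h, 949 were above 0 and 660 below.

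The genes whose step differed most from both neighbours were Hs3st3b1, Cebpd, Bmp4, Lrrc14 and Gbx2 upward and Ndrg1, Ager, Lcorl, Hs6st1 and Mipol1 downward. Signs were counted, so an earlier step in the other direction added to the difference, as for Hs3st3b1 and Ager. Upward, the step from 2 h to 4 h minus the step from 4 h to 6 h was 1.77 for Hs3st3b1, 1.63 for Cebpd, 1.62 for Bmp4, 1.58 for Lrrc14 and 1.62 for Gbx2 (log2). Downward, it was -1.94 for Ndrg1, -1.62 for Ager, -1.58 for Lcorl, -1.52 for Hs6st1 and -1.63 for Mipol1. The 2 probe sets of Lrrc14 were called in opposite directions, and the call of Ager was lost with suffix-free probe sets.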

How the results depend on the processing

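The main counts were 2316 genes higher, 2160 lower, and 750 and 1609 genes whose step differed from the later and the earlier step. Counting every probe set gave 3666 higher. Array weights gave 3305 lower and 2233 and 3557 genes with differing steps. An adjusted p under 0.01 gave 1289, 1078, 165 and 433. A log2 difference of at least 0.5 as well left 711 higher and 653 lower. The fit of only the 9 RA arrays gave 2028 genes differing from the later step. Leaving out 1 array gave 1617 to 3008 higher, 1419 to 2848 lower, 204 to 2030 differing from the later step and 445 to 2884 from the earlier, each highest without untreated C and lowest without 2 h C, 2 h B, 4 h B and 2 h C. The replicate letters showed no pairing between 2 h and 4 h, where same-letter deviations correlated at -0.0502, -0.0558 and -0.1282. Between 4 h and 6 h same-letter deviations correlated at 0.2661 (A), 0.0568 (B) and 0.3147 (C), and different-letter deviations at -0.3038 to 0.0628. The other same-letter pairs of arrays lay between -0.0747 and 0.1848. With the letter as a replicate block the counts were 2281, 2139, 759 and 1514.

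Of 219 called genes the text could name, 189 kept their call as the mean of their probe sets, 214 under quantile normalization, 206 under median centring, 213 with the replicate block and 175 to 190 with 1 of the 6 arrays left out. Signs turned for Actb (-0.022 as the mean of probe sets, -0.051 with suffix-free probe sets, -0.011 without 2 h B, -0.0061 without 4 h C, up to 0.028 without 2 h C), Ddit3 (0.014 under median centring, 0.0047 without 2 h A, 0.035 without 2 h B, 0.0095 without 4 h A, down to -0.069 without 2 h C) and, as means of probe sets, Dbf4 (0.010), Dnmt3a (-0.062), Fosl2 (-0.018) and Sox17 (0.15). With suffix-free probe sets they turned for Atp5g1 (-0.092), Hmmr (0.23), Meis1 (-0.081) and Stard4 (-0.11). Leaving out 1 array gave -0.026 to 0.22 for Col1a1 (lowest without 4 h C), -0.021 to 0.18 for Id1 and -0.040 to 0.23 for Otx2 (both lowest without 4 h A). The cause was not tested.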
